A study of Mus musculus with 12 samples.

Results

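Dermal papilla (DP) cells taken on postnatal day 16 (P16) were compared between mice that lack the Fgf receptor genes Fgfr1 and Fgfr2 in the DP and control mice. Of the 12 samples of the series, the 6 with P16 in their labels were chosen, 3 control and 3 double mutant, and the other 6 are the same genotypes at P14. The mutants (dMF1/2) were Cor-cre/+; Fgfr1Flox/Flox; Fgfr2Flox/Flox, in which Cre recombinase made from the Corin locus, a gene active in the DP, removes both receptors there. All mice carried a YFP reporter that Cre switches on, and YFP-positive cells were sorted by FACS in 2 rounds from dissociated skin in late anagen before RNA was sequenced. The labels call the controls wild type. The study's crosses list the controls as Cor-cre/+; Fgfr1Flox/+; Fgfr2Flox/+ or as floxed mice without Cre. Since YFP needs Cre, mice without Cre would give no YFP-positive cells, so the sorted controls should be of the first kind. Their sorted cells would then already lack 1 copy of each receptor gene. The genotype of each control library is not stated. The study counts each library as 1 mouse. The question put to these data was which genes of the DP differ between the genotypes at P16. The study reports that the regression phase of the follicle begins later in the mutants than in controls. A direct effect of lost Fgf signaling and a delay in the hair cycle therefore cannot be told apart at P16.

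The DP is a cluster of mesenchymal cells at the base of the hair follicle that signals to the surrounding matrix keratinocytes, whose division builds the hair shaft. Anagen is the growth phase of the hair cycle and ends when catagen, the regression phase, begins. Fgf receptors are tyrosine kinases that activate the Ras-ERK cascade, and cells answer ERK activity by transcribing Etv factors and inhibitors of the cascade such as Sprouty and Dusp proteins. In canonical Wnt signaling, R-spondins raise the amount of Wnt receptor at the cell surface, Dkk proteins block the co-receptor, and Notum removes a lipid that Wnt proteins need.

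The 3 control libraries held 23087174 to 29860750 reads of protein-coding genes and the 3 dMF1/2 libraries 21161124 to 27122936. Levels are given as normalized reads, which are reads of a gene divided by a size factor of the library and not by gene length, so they compare a gene between libraries and not genes with each other. The first principal component of the 500 most variable genes held 65.0% of the variance and separated the genotypes, with the control libraries at -30.5, -11.7 and -21.0 and the dMF1/2 libraries at 13.7, 24.6 and 25.0. Control replicate 1 lay farthest out on the control side. Control replicate 3 stood apart in another way, since Ddx3y and Eif2s3y, genes of the Y chromosome, had no read in it, against at least 1750.0 normalized reads of Ddx3y and 588 of Eif2s3y in each of the other 5 libraries. Kdm5d and Uty, also on the Y chromosome, had 88.2 and 39.5 normalized reads there, against at least 558 and 887 in the others. The part of sex in the results was not tested. Without control replicate 3, all 582 genes called below kept their direction and 183 of them kept their call.

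The targeted genes were examined first. Fgfr1 (ENSMUSG00000031565, chromosome 8 of GRCm38, 25513654 to 25575714) had 12517, 8512 and 9940.2 normalized reads in control replicates 1, 2 and 3, and 8015, 6226 and 7552 in the dMF1/2 libraries. Every dMF1/2 library lay below every control library, and for the log2 fold change, -0.50 with a standard error of 0.16, limma gave an adjusted p of 0.13, or 0.0109 with the replicate number as a block. For Fgfr2 (ENSMUSG00000030849, on chromosome 7 from 130162451 to 133123350), 5356, 5118 and 4763 normalized reads were found in the controls and 5554, 4113 and 5575 in the mutants. The groups overlapped, and the log2 fold change was -0.01 (adjusted p = 0.978 by limma). Counting covered whole genes, so an exon lost to Cre takes only its reads, and those of any transcript that decays, from these counts, which therefore do not measure how complete the deletion was.

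Genes averaging 10 or more normalized reads over the 6 libraries were tested. Of these 13457 genes, 582 (4.32%) differed between genotypes at an adjusted p under 0.05, of which 294 were higher in dMF1/2 libraries (2.18%) and 288 lower (2.14%). The differences were of like size in both directions, with a median log2 fold change of 1.07 among the higher and -0.99 among the lower genes, while the median of all genes tested was -0.00. More than 2-fold differences were found for 157 higher and 140 lower genes, and more than 4-fold differences for 48 and 45. The 3 dMF1/2 and 3 control libraries did not overlap for all 582 called genes, as for 3291 of all genes tested (24.5%). With the replicate number as a block, 1403 genes were called (10.4%), 655 higher (4.87%) and 748 lower (5.56%), the 582 among them. The counts of called members of a list given below stand beside these shares of all genes. Leaving out 1 library at a time called 149 to 683 genes, fewest without dMF1/2 replicate 3 and without control replicate 3 (185), and 125 genes were called in each of these 6 fits, 57 higher and 68 lower. An exact permutation test of 3 libraries against 3 cannot go below p = 0.1, so single genes were not tested that way. In sorted bulk samples a lower share of cells with a transcript and a lower amount of it per cell cannot be told apart.

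**Figure D1:**
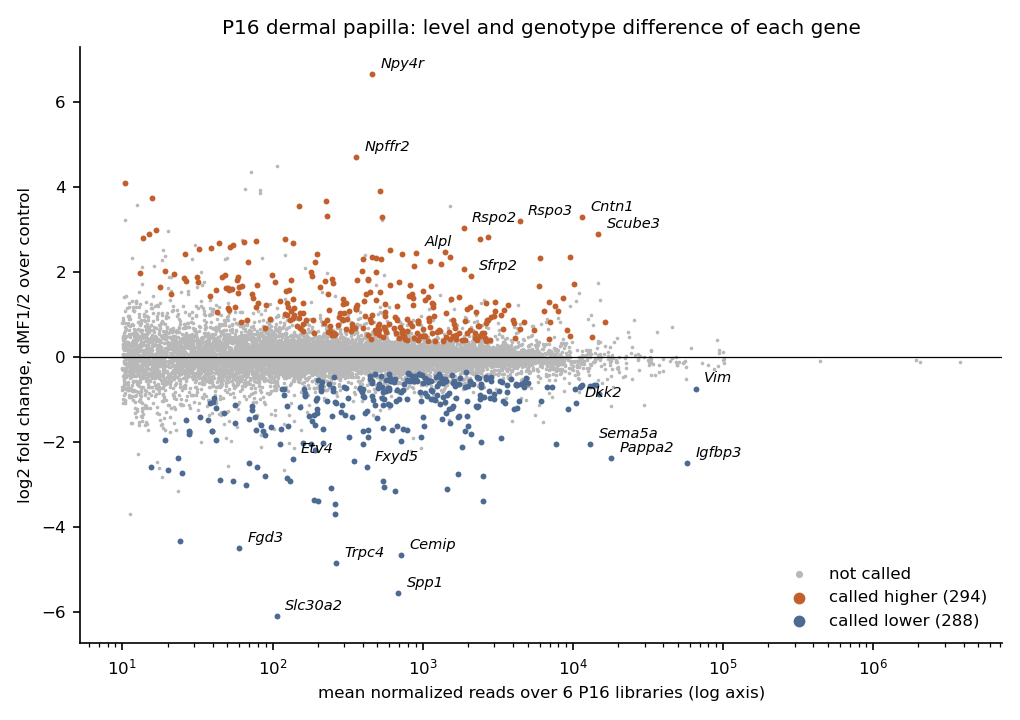
Each point is 1 of 13457 genes, with its mean normalized reads over the 6 P16 libraries on a log x axis and its log2 fold change of dMF1/2 over control on the y axis. The 294 genes called higher are orange, the 288 called lower are blue, and Npy4r at the top and Slc30a2 at the bottom have the largest differences of the named genes.

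The largest rises in dMF1/2 libraries were of 2 receptors for neuropeptides. Npy4r, the receptor for pancreatic polypeptide, had 5.24, 10.4 and 7.1 normalized reads in the control libraries and 446, 1244 and 1051 in the dMF1/2 libraries. Npffr2, the receptor for neuropeptide FF, had 12.2, 96.4 and 13.2 and 727, 650.4 and 666. Npy4r was close to absent from all 3 controls, Npffr2 was highest among the controls in replicate 2, and for both genes the groups lay far apart, with log2 fold changes of 6.65 (standard error 0.39, limma's adjusted p = 0.000909) and 4.69 (standard error 0.68, limma's adjusted p = 0.0111). Without control replicate 3 the adjusted p was 0.0082 for Npy4r, and for Npffr2 it was 0.0515 without dMF1/2 replicate 3, the 1 fit of the 6 in which its call was lost.

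With a pseudocount of 1, the largest falls were of a zinc exporter and a secreted matrix protein. Slc30a2, which moves zinc out of the cytosol, had 353, 87.1 and 196 normalized reads in control and 2.16, 1.87 and 1.06 in dMF1/2 libraries. Only 5 reads were counted in the 3 dMF1/2 libraries together, against 681 in the controls, so the fitted log2 fold change of -6.11 depends on the pseudocount and was -6.72 with 0.1 and -4.05 with 10 (limma's adjusted p = 0.0029 with 1). It passed the filter through the controls and was also tested among all 15334 genes (adjusted p = 0.00205), but could not be tested where every library had to hold 10 normalized reads. Spp1, osteopontin, had 2053, 752 and 1235 normalized reads in control and 44.3, 13.1 and 27.5 in dMF1/2 libraries. The lowest control library held over 10 times the Spp1 of the highest dMF1/2 library, and the log2 fold change was -5.56 (standard error 0.47, limma's adjusted p = 0.00311). The call of Spp1 held with any 1 library left out, with adjusted p up to 0.0256.

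The promoters of these 4 genes and of Dkk2 are shown because these genes carry the largest differences and the Wnt result below. Each is RefSeq sequence of build GRCm38.p6, from 250 bases before to 50 bases after an annotated start site, written 5′ to 3′ on the strand of the gene. The window of Slc30a2 begins past the start of the gene in the annotation used for its coordinates here (134343181) and so lies within it. Rspo2, Rspo3 and Notum had no entry. Capitals mark matches to 4 motifs on either strand: CTTTGA, the core bound by TCF/LEF factors of the Wnt pathway; CCGGAA, the core bound by ETS factors such as the Etv proteins; TGANTCA, bound by AP-1; and CACGTG, an E-box.
Npy4r (chr14:34152370-34152669, minus strand): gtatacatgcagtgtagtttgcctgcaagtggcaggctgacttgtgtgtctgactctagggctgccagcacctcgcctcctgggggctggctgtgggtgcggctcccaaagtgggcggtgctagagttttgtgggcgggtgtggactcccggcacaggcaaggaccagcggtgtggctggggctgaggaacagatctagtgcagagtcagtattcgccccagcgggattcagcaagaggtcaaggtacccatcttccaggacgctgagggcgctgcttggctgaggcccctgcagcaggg
Npffr2 (chr5:89527179-89527478, plus strand): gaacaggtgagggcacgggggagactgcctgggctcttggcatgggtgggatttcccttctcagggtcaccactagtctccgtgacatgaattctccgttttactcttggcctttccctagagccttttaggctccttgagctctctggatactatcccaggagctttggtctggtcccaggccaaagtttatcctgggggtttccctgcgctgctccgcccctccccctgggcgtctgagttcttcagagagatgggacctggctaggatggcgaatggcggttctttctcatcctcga
Slc30a2 (chr4:134343216-134343515, plus strand): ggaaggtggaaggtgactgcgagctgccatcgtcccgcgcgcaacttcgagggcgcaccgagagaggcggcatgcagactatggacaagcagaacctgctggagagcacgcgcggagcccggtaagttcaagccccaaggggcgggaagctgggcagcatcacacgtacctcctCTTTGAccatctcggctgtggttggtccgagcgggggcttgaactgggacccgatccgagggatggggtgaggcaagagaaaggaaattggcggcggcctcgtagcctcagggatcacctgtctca
Spp1 (chr5:104434861-104435160, plus strand, the first of 2 annotated starts): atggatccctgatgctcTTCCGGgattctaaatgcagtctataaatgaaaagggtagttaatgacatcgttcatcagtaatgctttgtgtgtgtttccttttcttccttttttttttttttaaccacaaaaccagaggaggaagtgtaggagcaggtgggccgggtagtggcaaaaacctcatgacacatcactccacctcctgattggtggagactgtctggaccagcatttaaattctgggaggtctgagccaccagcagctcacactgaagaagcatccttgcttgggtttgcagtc
Dkk2 (chr3:132085042-132085341, plus strand): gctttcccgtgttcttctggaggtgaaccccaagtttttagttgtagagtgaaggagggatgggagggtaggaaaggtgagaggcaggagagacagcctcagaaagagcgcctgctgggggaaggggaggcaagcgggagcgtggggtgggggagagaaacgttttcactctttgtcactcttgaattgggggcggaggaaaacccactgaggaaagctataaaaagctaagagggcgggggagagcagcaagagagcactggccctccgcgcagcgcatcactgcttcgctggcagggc

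These windows held 1 match to the TCF/LEF core, at -76 from the start site of Slc30a2, and 1 to the ETS core, at -233 from that of Spp1, while Npy4r, Npffr2 and Dkk2 held none of the 4 motifs and no matches overlapped. RefSeq promoters were matched by symbol for 10219 of the 13456 distinct symbols tested, 215 of the 294 genes called higher and 232 of the 288 called lower, taking the first start of each gene. The TCF/LEF core was present in 12.6% of the promoters of genes called higher, 7.33% of those called lower and 11.8% of all. The ETS core was present in 9.3%, 14.2% and 27% in the same order. AP-1 matches were found in 6.05%, 5.17% and 4.8%, and E-boxes in 5.58%, 6.9% and 9.9%. The ETS core was thus less frequent in both called groups than in all promoters tested. These shares are a description, were not tested, and a match is not a bound site.

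Targets of the Fgf-ERK cascade came next. Of 28 tested genes that ERK activity induces or that feed back on it, 7 fell (against 2.14% of all genes), none rose, and the median log2 fold change was -0.38 with 3 of the 28 above 0. Etv4, an ETS factor, had 278, 197 and 217 normalized reads in control and 42.1, 41.1 and 43.4 in dMF1/2 libraries. Etv1 had 1238, 999 and 1155 against 404, 283 and 370.5, and Etv5 had 830.3, 997 and 946 against 553, 425 and 422. For all 3 factors the highest dMF1/2 library lay below the lowest control library. On the log2 scale the fold changes were -2.41 (limma's adjusted p = 0.00154) for Etv4, -1.69 (0.00329) for Etv1 and -0.99 (0.00841) for Etv5, with standard errors of 0.17, 0.15 and 0.13, and these calls held with any 1 library left out.

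Of the dual-specificity phosphatases that remove phosphate from ERK, Dusp2, Dusp6 and Dusp7 were called lower. Dusp2 had 203, 114 and 227 normalized reads in control and 43.2, 33.6 and 47.6 in dMF1/2 libraries (log2 fold change -2.06, limma's adjusted p = 0.00866), and Dusp6 had 684, 723 and 803 against 292, 421 and 405 (-0.996, adjusted p = 0.0125). Dusp7 (-1.01, adjusted p = 0.0364) and Myc (-0.86, adjusted p = 0.0426), a transcription factor for growth genes, completed the 7. The Sprouty inhibitors of the cascade, Spry1, Spry2 and Spry4, were not called, with log2 fold changes of 0.05, -0.15 and -0.45 and adjusted p-values of 0.902, 0.413 and 0.436. The replicate block called 13 of the 28 genes lower, against 5.56% of all genes. Dusp6 lost its call without control replicate 3 (adjusted p = 0.0571), Dusp7 in 4 of the 6 leave-one-out fits (up to 0.12, without dMF1/2 replicate 3) and Myc in 5 (up to 0.136, without control replicate 3). Myc was not called in 1 fit of all 12 libraries of P14 and P16 (adjusted p = 0.0882).

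Immediate early and stress genes, which answer growth factors and also the handling of cells during dissociation, were mostly lower. Of 36 tested, 35 had a log2 fold change below 0, with a median of -0.45, but only 4 passed the test and none rose. The replicate block called 12 lower and 1 higher. Nr4a2, an orphan nuclear receptor, had 833, 749.7 and 909 normalized reads in control and 288, 206 and 286 in dMF1/2 libraries (log2 fold change -1.68, limma's adjusted p = 0.00329). Hspb1, a small heat shock protein, had 3924, 2136 and 3594 against 1192, 516 and 1129 (-1.81, adjusted p = 0.0273). Nr4a2 separated the genotypes by a wide margin, while Hspb1 varied more than 2-fold among the dMF1/2 libraries. Atf3 (18974, 15663 and 16380.5 against 10355, 11929 and 10112, -0.65) and Ier5 (6349, 3101 and 5031 against 2248, 2092 and 2224, -1.08) were the others called, at adjusted p-values of 0.0224 and 0.0395. The classical members Fos and Egr1 were not called, with log2 fold changes of -0.23 and -0.10 (adjusted p = 0.577 and 0.821). Hspb1, Atf3 and Ier5 lost their calls in 3, 4 and 5 of the 6 leave-one-out fits (adjusted p up to 0.099 for Hspb1 and 0.133 for Ier5 with control replicate 3 omitted, and to 0.0956 for Atf3 with dMF1/2 replicate 3 omitted). The part of cell handling in these differences was not tested. Atf3, Hspb1 and Ier5 were not called when all 12 libraries were fitted together (adjusted p = 0.24, 0.0708 and 0.0501).

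Of 12 Fgf ligand genes tested, Fgf10 and Fgf11 rose (16.7%, against rises of 2.18% of all genes) and none fell, with a median of -0.00 (3 higher and 1 lower with the block). Fgf10, a secreted ligand of Fgfr2 on epithelial cells, had 1657, 2403 and 2012 normalized reads in control and 3119.8, 4032 and 4714 in dMF1/2 libraries (log2 fold change 0.96, limma's adjusted p = 0.0258). Fgf11, an intracellular member of the family, had 192, 221 and 212 against 363, 309 and 479 (0.86, adjusted p = 0.0285). Of 19 receptors and co-receptors, only Gpc1 (5.26%, against 4.32% of all genes), a heparan sulfate proteoglycan that binds Fgfs, was called. It had 3920.1, 2194 and 2504 normalized reads in control and 1368, 747 and 1181 in dMF1/2 libraries (-1.39, adjusted p = 0.0286), and its control libraries spread more than the dMF1/2 libraries in reads. With 1 library left out, Fgf10 lost its call in 4, Fgf11 in 4 and Gpc1 in 3 of 6 fits (adjusted p up to 0.0946 for Fgf10 and 0.0918 for Gpc1 with dMF1/2 replicate 3 omitted, and to 0.0903 for Fgf11 with control replicate 3 omitted). Of the receptors and co-receptors, 4 were higher and 4 lower with the replicate block.

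Of 18 secreted modulators of Wnt signaling 4 rose and 1 fell, against 2.18% and 2.14% of all genes, and their median log2 fold change was 0.65, with 15 above 0. Rspo3 (ENSMUSG00000019880, on chromosome 10 from 29453109 to 29535867) had 474, 1282 and 1013 normalized reads in the control libraries and 6486, 7466 and 9830.0 in the dMF1/2 libraries. Rspo2 (ENSMUSG00000051920, on chromosome 15 from 43020811 to 43170818) had 213, 544 and 548 in control and 3070.1, 2709.8 and 4169 in dMF1/2 libraries. In both cases control replicate 1 was lowest and dMF1/2 replicate 3 highest, with a wide gap between the genotypes, and the log2 fold changes were 3.20 (standard error 0.34, limma's adjusted p = 0.00502) and 3.03 (standard error 0.35, adjusted p = 0.00604). The other R-spondins separated by genotype but did not pass limma's test: Rspo1 had 1218, 1988 and 1819 against 2603, 2745 and 3495 (0.83, adjusted p = 0.0523) and Rspo4 2637, 9063 and 7822 against 12857, 12449 and 17946 (1.31, adjusted p = 0.132). With the replicate block, both Rspo1 (adjusted p = 0.00889) and Rspo4 (0.0411) were called higher, and DESeq2 called Rspo1 (adjusted p = 0.00113) but not Rspo4 (0.214).

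A pair of antagonists lay lower. Dkk2 (ENSMUSG00000028031, on chromosome 3 from 132085292 to 132180304), which blocks the Wnt co-receptor, had 13223, 14916 and 14681 normalized reads in control and 8363, 5010.0 and 7167 in dMF1/2 libraries, which is -1.09 on the log2 scale (standard error 0.18, adjusted p = 0.0169 by limma). Notum (ENSMUSG00000042988, on chromosome 11 from 120653788 to 120661175) had 9049, 8140.1 and 10517 against 5146, 1668 and 3711, with dMF1/2 replicate 2 the lowest of all (-1.53, adjusted p = 0.0536, 0.0118 with the replicate block and 0.0178 in DESeq2). The groups did not overlap for either gene, as for 24.5% of all genes. Dkk2 lost its call in 2 of the 6 leave-one-out fits, with adjusted p up to 0.0683 (without control replicate 3), while the calls of Rspo2 and Rspo3 held in all 6, with values up to 0.0314 and 0.0264.

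Other inhibitors were higher. Sfrp2, a secreted protein that binds Wnt ligands, rose from 729.9, 1352 and 671 normalized reads in control to 2872, 3379.8 and 3489.8 in dMF1/2 libraries (log2 fold change 1.89, limma's adjusted p = 0.00801). Sostdc1, a secreted antagonist of Bmp and Wnt signals, had 1209, 5253 and 4317 against 12321, 13935 and 20696 (2.34, adjusted p = 0.042). Both were higher in every dMF1/2 library than in any control library, so 2 secreted inhibitors rose while Dkk2 fell. The call of Sfrp2 held in the leave-one-out fits (adjusted p up to 0.043), and that of Sostdc1 was lost in 4 of them (up to 0.146, without dMF1/2 replicate 3). Of the 18 modulators, 8 were higher and 3 lower with the replicate block, against 4.87% and 5.56% of all genes. Sostdc1 missed the threshold with voom (adjusted p = 0.0541).

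**Figure D2:**
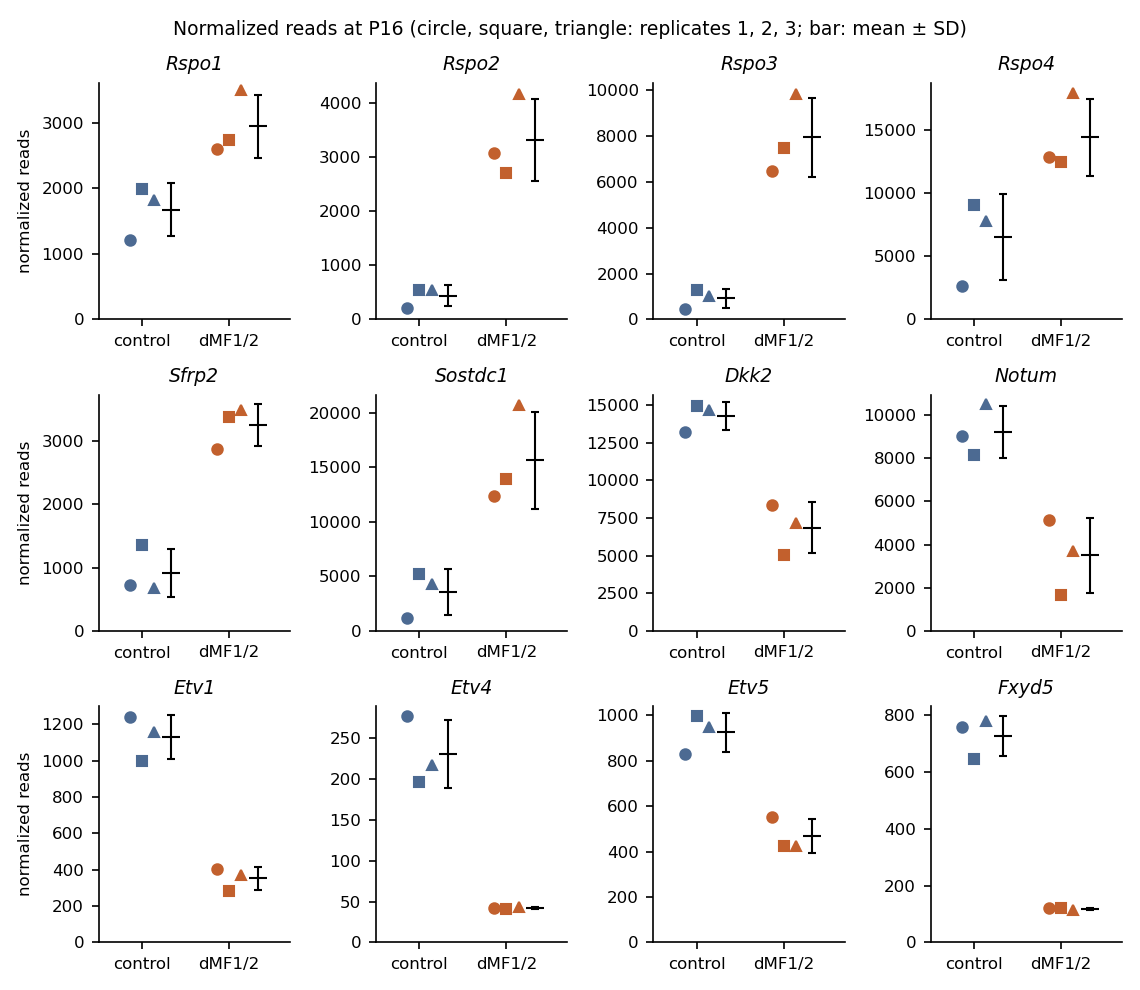
Normalized reads of 12 genes in the 6 P16 libraries, each panel on its own linear axis from 0, with control in blue, dMF1/2 in orange, replicates 1, 2 and 3 as circles, squares and triangles, and the mean ± SD of 3 libraries as a bar. The genotypes do not overlap in any of the 12 panels, as for 24.5% of all genes tested. Rspo1, Rspo4 and Notum are the 3 genes shown that did not pass the main test, and all 3 were called with the replicate block.

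Wnt5a and Wnt5b, ligands best known from noncanonical signaling, rose. Wnt5a had 3291, 3925 and 3033 normalized reads in control and 5456, 6226 and 6295 in dMF1/2 libraries (log2 fold change 0.82, limma's adjusted p = 0.0107), and Wnt5b had 387, 386 and 310.3 against 657, 830.5 and 778 (1.06, adjusted p = 0.00644). Wnt16 fell, with 236, 180.4 and 155 against 83.2, 51.3 and 49.7 (-1.64, adjusted p = 0.012). These were 3 of 11 ligands tested, whose median was -0.06 and of which 2 higher and 2 lower were called with the block. Of 22 Wnt receptors, Lgr4, a receptor for R-spondins, rose from 1497, 1890.4 and 1802 to 3567, 3805 and 5551 (1.29, adjusted p = 0.00862) and Fzd10, a Frizzled receptor, from 163, 349 and 520.1 to 1427, 1042 and 1723 (2.14, adjusted p = 0.0228), with none lower, a median of 0.02, and 2 higher and 1 lower with the block. The calls of Wnt5b and Lgr4 held in the 6 leave-one-out fits. Those of Wnt5a, Wnt16 and Fzd10 were lost in 1, 1 and 2, with adjusted p-values up to 0.051, 0.0534 and 0.101 (each without dMF1/2 replicate 3). Wnt16 was not called in the fit of all 12 libraries (adjusted p = 0.0939).

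Inside the cell, 5 of 38 Wnt components rose and 1 fell (8 higher and 2 lower with the block). Daam2, a formin that also promotes canonical signaling, had 4035, 5134 and 4688 normalized reads in control and 10091, 9217 and 12679 in dMF1/2 libraries (log2 fold change 1.20, limma's adjusted p = 0.00611). Apc2, a scaffold of the complex that destroys beta-catenin, had 155, 162 and 173 against 291, 290.2 and 319 (0.87, adjusted p = 0.00679), and Tle2, a Groucho co-repressor, 195, 191 and 195 against 368, 343 and 502 (1.04, adjusted p = 0.0111). Pygo1 (0.55, adjusted p = 0.0273), a nuclear co-factor of beta-catenin, also rose, as did Prickle2 (0.48, adjusted p = 0.0341) of the planar polarity branch. Ctnnb1, which encodes beta-catenin, the carrier of the canonical signal to the nucleus, fell from 15589, 17456 and 19623 to 12425, 10213 and 10739 (-0.66, adjusted p = 0.0275), and it was the only gene of this list called lower. Ctnnb1 lost its call in 4 of the 6 leave-one-out fits (adjusted p up to 0.108), as did Pygo1 in 5 (up to 0.108) and Prickle2 in 5 (up to 0.12), the highest values being those without dMF1/2 replicate 3. Daam2, Apc2 and Tle2 kept theirs.

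In the Bmp pathway 5 of 34 genes rose and none fell, with a median of 0.06 (7 higher and 1 lower with the block). They include secreted antagonists, which keep Bmp or activin ligands from their receptors. Nog, noggin, had 240.1, 483 and 473 normalized reads in control and 1032, 1211 and 1463 in dMF1/2 libraries (log2 fold change 1.68, limma's adjusted p = 0.0152), and Fst, follistatin, 526, 681 and 527 against 1075, 1678 and 1714 (1.34, adjusted p = 0.0109). The ligand Bmp6 rose as well, from 412, 657 and 543 to 1324, 1613 and 2233 (1.67, adjusted p = 0.00841), and so did the decoy receptor Bambi (1031, 1671 and 1734 against 3060.3, 2351 and 3658, 1.05, adjusted p = 0.0425). Bmp6 and these antagonists therefore moved the same way. Bmp4, a ligand of the DP, was not called (-0.16, adjusted p = 0.587). The call of Bmp6 held with any 1 library left out, while Nog, Fst and Bambi lost theirs in 1, 2 and 4 fits (adjusted p up to 0.07, 0.051 and 0.141, each without dMF1/2 replicate 3).

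Of 26 genes of the Tgf-beta and activin pathway, 2 rose and 3 fell, with a median of -0.02 (2 higher and 5 lower with the block). Inhbb, a subunit of activin and inhibin, fell from 3583, 2155 and 3084 normalized reads in control to 1073, 706 and 820.3 in dMF1/2 libraries (log2 fold change -1.75, limma's adjusted p = 0.00615). Tgfb1 fell from 1926, 1554 and 1941 to 984, 773 and 1039 (-0.96, adjusted p = 0.0111) and the co-receptor Eng, endoglin, from 1998, 2082 and 2197 to 1341, 1361 and 1322 (-0.64, adjusted p = 0.00611). In each case the 2 groups were well apart. Ltbp1, which holds latent Tgf-beta in the matrix, rose from 12408, 12816 and 10241 to 17079.9, 21566 and 24277 (0.82, adjusted p = 0.0273), as did Smad3, a transducer (0.42, adjusted p = 0.0479). Inhbb and Eng kept their calls in the leave-one-out fits, and Tgfb1, Ltbp1 and Smad3 lost theirs in 1, 3 and 6 of 6 (adjusted p up to 0.0516 for Tgfb1 with control replicate 3 omitted, and to 0.0994 for Ltbp1 and 0.149 for Smad3 with dMF1/2 replicate 3 omitted). Scube3, a secreted protein of the cell surface that acts with Tgf-beta and Bmp receptors and is outside that list, had one of the strongest differences of all, with 2604, 4235 and 3879 normalized reads in control and 24359, 22944 and 30503 in dMF1/2 libraries (2.88, adjusted p = 0.00154). Smad3 lost its call in the fit of all 12 libraries (adjusted p = 0.123).

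Notch genes were called in both directions. Of 23 tested, Hey2, a target of the pathway, rose from 106, 151 and 201 normalized reads in control to 359.7, 691 and 855 in dMF1/2 libraries (log2 fold change 2.01, limma's adjusted p = 0.018), while Hes1, another target, fell from 1789.8, 1489 and 1698 to 1088, 1252 and 1119 (-0.52, adjusted p = 0.0275). The co-activator Maml2 (745, 822 and 759 against 1166, 1184 and 1322, 0.66, adjusted p = 0.00866) and the receptor Notch2 (0.41, adjusted p = 0.0334) also rose. Thus 2 target genes of a pathway moved in opposite directions, and the median of the list was -0.14. The call of Maml2 held in the leave-one-out fits, and Hey2, Hes1 and Notch2 lost theirs in 2, 4 and 6 of them (adjusted p up to 0.0706 for Hey2 and 0.11 for Hes1 with dMF1/2 replicate 3 omitted, and to 0.131 for Notch2 with control replicate 3 omitted). With the replicate block, 7 of the 23 were lower and 4 higher. Hes1 was not called in the fit of all 12 libraries (adjusted p = 0.0625).

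Of 15 Hedgehog genes (4 higher and 2 lower with the block), the receptor Ptch1, itself induced by the pathway, rose from 3483, 5027 and 5802 normalized reads in control to 9805, 10877 and 16809.5 in dMF1/2 libraries (log2 fold change 1.38, limma's adjusted p = 0.0208), and Gas1, a co-receptor, fell from 14053, 11752 and 12985 to 7461, 5174 and 4356 (-1.22, adjusted p = 0.0129). Ptch1 and Gas1 thus differed in opposite directions with no overlap of the groups. Gli1, the other well known target, was not called (1.04, adjusted p = 0.0509, 0.00126 with the replicate block and 0.000322 in DESeq2), though 10 of the 12 alternatives with 6 or more libraries called it. Igfbp3, a secreted binding protein of Igf, was the only one of 15 Igf genes called (3 higher and 1 lower with the block) and one of the most abundant genes to fall, with 145089, 67684 and 80792 normalized reads in control and 26984, 11128 and 14273 in dMF1/2 libraries (-2.51, adjusted p = 0.0123). Pappa2, a protease that cuts Igf binding proteins, fell with it from 38726, 22645 and 29512 to 6628, 4429.6 and 6169.8 (-2.39, adjusted p = 0.00371). A binding protein and a protease of the same system were therefore both lower. Pappa2 kept its call in the 6 leave-one-out fits, while Ptch1, Gas1 and Igfbp3 lost theirs in 2, 1 and 1 (adjusted p up to 0.0602 for Ptch1 and 0.0611 for Igfbp3 with dMF1/2 replicate 3 omitted, and to 0.0565 for Gas1 with control replicate 3 omitted).

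Genes of 3 smaller signal lists follow. Nrg2, a ligand of ErbB receptors, rose from 279, 1025 and 935 normalized reads in control to 3629, 4019.9 and 6451 in dMF1/2 libraries (log2 fold change 2.82, limma's adjusted p = 0.0178), and Erbb3, a receptor for neuregulins, fell from 148, 105 and 129 to 50.8, 34.5 and 38.1 (-1.61, adjusted p = 0.00841), the 2 called of 13 ErbB genes (2 higher and 2 lower with the block). Erbb3 is also a marker of Schwann cells, and the part of such cells in its fall was not tested. Nrp2, a co-receptor of Vegf and semaphorins, was the 1 gene called of 21 in the Pdgf, Vegf and angiopoietin list, which had 1 higher and 2 lower with the block (4886, 4959.8 and 5569 against 3787, 2897 and 3043, -0.67, adjusted p = 0.021). None of 15 neurotrophic factors and receptors passed the test, with a median of 0.14 (1 higher and 1 lower with the block). The smallest p in that list belonged to Ntf3, at an adjusted p of 0.0529 (log2 fold change 0.66, adjusted p = 0.0414 with the block and 0.0262 in DESeq2). Nrg2 and Nrp2 lost their calls in 2 and 3 leave-one-out fits (adjusted p up to 0.0787 and 0.0935, each without dMF1/2 replicate 3), and Erbb3 kept its call. Nrp2 lost its call in the fit of all 12 libraries (adjusted p = 0.0847).

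Markers of the DP itself were called in both directions. Of 26 tested, 7 rose and 3 fell, against 2.18% and 2.14% of all genes, with a median of 0.79, and their summed level was 5768, 8167 and 8686 RPM (reads of the listed genes per 1000000 reads of the library) in the control and 8899, 8502 and 13751 in the dMF1/2 libraries, so the groups overlapped. Alpl, alkaline phosphatase, the classical stain of the DP, rose from 223, 359.8 and 257 normalized reads in control to 1254, 1364 and 1971 in dMF1/2 libraries (log2 fold change 2.45, limma's adjusted p = 0.00329). Cntn1, a cell adhesion molecule, rose from 786, 2903 and 2881 to 10119.8, 16448 and 36308 (3.28, adjusted p = 0.0228) and Ndnf, a secreted neurotrophic protein, from 1694, 3871 and 3012 to 5529, 9859 and 11481 (1.66, adjusted p = 0.0374). The libraries of each genotype were widely spread for Cntn1 and Ndnf, with control replicate 1 lowest and dMF1/2 replicate 3 highest. Crabp1, which binds retinoic acid, fell from 5023, 5482 and 4903 to 3880.3, 2616 and 3383 (-0.66, adjusted p = 0.0424), beside Pappa2 and Dkk2. The other markers that rose were Rspo3, Rspo2, Bmp6 and Fgf10. These and Dkk2 were already counted in the Wnt, Bmp and Fgf lists above, so the lists are not independent. Corin, whose locus drives the Cre, had 2776, 12352 and 7518 normalized reads in control and 15324, 22638 and 27358 in dMF1/2 libraries without passing the test (1.73, adjusted p = 0.0938, or 0.0105 with the replicate block). With the block, 15 markers were higher and 5 lower, against 4.87% and 5.56% of all genes. Cntn1, Ndnf and Crabp1 lost their calls in 3, 4 and 5 of the leave-one-out fits (adjusted p up to 0.0787, 0.129 and 0.119, each without dMF1/2 replicate 3), and Alpl kept its call.

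Of 13 factors through which the papilla acts on melanocytes and matrix cells, 3 rose (23.1%, against 2.18% of all genes). Edn3, a ligand for melanocytes, rose from 268, 516 and 574 normalized reads in control to 794, 1434 and 1537 in dMF1/2 libraries (log2 fold change 1.48, limma's adjusted p = 0.0472), and the others were Nog and Fgf10, with none lower (6 higher and 0 lower with the block). Agouti, listed under the symbol a and so not matched to the 13, encodes the secreted protein that switches melanocytes to yellow pigment, and it was among the 15 largest falls with 618, 350.5 and 442 normalized reads in control and 104, 12.1 and 30.7 in dMF1/2 libraries (-3.70, adjusted p = 0.0207). These 2 signals to melanocytes moved in opposite directions. Edn3 lost its call in 5 of the leave-one-out fits (adjusted p up to 0.157, without dMF1/2 replicate 3) and agouti in 2 (up to 0.0889, without dMF1/2 replicate 3). Fgf10 was not called in the fit of all 12 libraries (adjusted p = 0.0526).

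Neuropeptides and their receptors held the largest rises, while the median of the 23 tested was -0.05. Beside Npy4r and Npffr2, Pdyn, the precursor of dynorphin opioid peptides, had 9.6, 34.2 and 84.2 normalized reads in control and 340.3, 337 and 551 in dMF1/2 libraries (log2 fold change 3.66, limma's adjusted p = 0.0223). Sst, somatostatin, had no read in any control library and 4.32, 30.8 and 27.5 normalized reads in dMF1/2 libraries, and no fold is given against 0. Npy4r and Sst averaged under 10 normalized reads in control and passed the filter through the dMF1/2 libraries, so they were also tested among all 15334 genes (adjusted p = 0.000601 and 0.022). With at least 10 normalized reads required in every library, Npffr2 was the only one of these 4 that could be tested, and the list held 1 call. Gpr165, an orphan receptor, rose from 11.3, 141 and 128 to 625, 1115 and 1086 (3.91, adjusted p = 0.0424). Pdyn, Sst and Gpr165 lost their calls in 3, 4 and 4 of the leave-one-out fits (adjusted p up to 0.1, 0.155 and 0.141, each without dMF1/2 replicate 3), and with the block 7 genes of the list were higher and 3 lower. Sst also missed the threshold in edgeR (adjusted p = 0.0529) and in limma with a pseudocount of 10 (0.0812).

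Snap91, Grin2b, Ptprz1 and Lhfpl4, genes best known from neurons, rose. They were picked from the named genes and are not a fixed list. Trim9, another such gene, fell from 649, 576 and 122 to 55.1, 30.8 and 40.2 (log2 fold change -3.10, limma's adjusted p = 0.0272). Its call was lost in 5 of the leave-one-out fits (up to 0.105, without dMF1/2 replicate 3), and an alternative with all libraries reached 0.126. Snap91, which shapes clathrin coats at synapses, had 43.7, 134 and 134 normalized reads in control and 516, 1144 and 1265 in dMF1/2 libraries (log2 fold change 3.28, limma's adjusted p = 0.0116). Grin2b, a subunit of NMDA glutamate receptors, had 28.8, 37.3 and 41.6 against 199.8, 199.7 and 318 (2.68, adjusted p = 0.00329), and Ptprz1, a receptor phosphatase that binds pleiotrophin, 246, 1025 and 782 against 3126, 3771 and 5387 (2.77, adjusted p = 0.0197). Control replicate 1 was lowest for all 3. Lhfpl4, a partner of GABA receptors, rose from 104, 85 and 108 to 332, 265 and 345 (1.65, adjusted p = 0.00392). Grin2b and Lhfpl4 kept their calls in the leave-one-out fits, while Snap91 and Ptprz1 lost theirs in 1 and 3 (adjusted p up to 0.0573 and 0.0889, each without dMF1/2 replicate 3). Markers of Schwann cells and nerve, 13 in the table, summed to 363 to 462 RPM in control and 476 to 515 in dMF1/2 libraries. Without Pmp22, their most abundant member (6302, 8663 and 7235 against 8888, 10018 and 8748, 0.33, adjusted p = 0.217), they summed to 116 to 142 against 99.3 to 124, and the part of nerve cells in these rises was not tested.

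Axon guidance genes, whose ligands and receptors steer growing axons and also act between other cells, were called in both directions, 8 higher and 4 lower of 61, with a median of 0.05. The netrin receptors moved apart. Unc5c rose from 403, 770.5 and 339.7 normalized reads in control to 2043, 2343 and 2090.5 in dMF1/2 libraries (log2 fold change 2.19, limma's adjusted p = 0.00644), and Dcc from 133, 105 and 153 to 399.7, 693 and 918 (2.29, adjusted p = 0.00705). Unc5b, of the same family as Unc5c, fell from 6648, 4144 and 4917 to 1652, 1074 and 1409 (-1.92, adjusted p = 0.00502). Of the ephrins and their receptors Efnb3 (0.69, adjusted p = 0.0162) and Ephb6 (0.87, adjusted p = 0.0215) were among those that rose and Efna3 (-1.43, adjusted p = 0.0273) fell. The semaphorins Sema5a, with 15303, 26664 and 20922 against 7506, 3832 and 4142 (-2.05, adjusted p = 0.00972), and Sema7a (-1.10, adjusted p = 0.031) were both lower. Unc5c, Dcc and Unc5b kept their calls with any 1 library left out. Sema5a, Efnb3, Sema7a, Ephb6 and Efna3 lost theirs in 1, 3, 4, 4 and 5 fits (adjusted p up to 0.05 for Sema5a, 0.0717 for Efnb3 and 0.108 for Sema7a with dMF1/2 replicate 3 omitted, and to 0.0738 for Ephb6 and 0.104 for Efna3 with control replicate 3 omitted), and of the 61 there were 16 higher and 6 lower with the block.

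Genes of ion transport were among the largest differences. Trpc4, a cation channel, fell from 802, 311 and 413 normalized reads in control to 48.6, 6.53 and 10.6 in dMF1/2 libraries (log2 fold change -4.85, limma's adjusted p = 0.00935), and its relative Trpc6 from 164, 135 and 118 to 44.3, 40.1 and 30.7 (-1.83, adjusted p = 0.00592). Slc12a1, the sodium, potassium and chloride cotransporter best known from the kidney, had 4622, 3121 and 5785 against 1087, 133 and 491 (-3.40, adjusted p = 0.0285). These 3 genes were present in every control library and much lower in every dMF1/2 library, with dMF1/2 replicate 1 the highest of the mutants. The call of Slc12a1 was lost in 3 leave-one-out fits (adjusted p up to 0.104 without control replicate 3). Scn4b, a sodium channel subunit, rose from 240.1, 693 and 447 to 1890.4, 2112 and 3100.2 (2.46, adjusted p = 0.0111), and the calcium channel genes Cacna1d (76.8, 76.7 and 72 against 179, 172 and 242, 1.37) and Cacna2d3 (38.4, 108 and 82.1 against 258, 261 and 327, 1.99) rose at adjusted p-values of 0.00615 and 0.019. Of 44 calcium, sodium and Trp channel genes 4 rose and 3 fell, with a median of 0.15 (8 higher and 5 lower with the block). Scn4b and Cacna2d3 lost their calls in 1 and 4 leave-one-out fits (adjusted p up to 0.0511 and 0.0883, each without dMF1/2 replicate 3), and Trpc4, Trpc6 and Cacna1d kept theirs.

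Of 38 potassium channel genes, Kcnd3 (42.8, 71.6 and 63.9 normalized reads in control, 186, 191 and 242 in dMF1/2 libraries, log2 fold change 1.80, limma's adjusted p = 0.00615) and Kcnq3 (1.40, adjusted p = 0.0374) rose and none fell (6 higher and 1 lower with the block). Slc30a2 was the only one called of 22 zinc transporters and metallothioneins, and their median was 0.00 (1 higher and 3 lower with the block). Slc26a7, an anion transporter, was among the largest falls with 1135, 2948 and 3733 normalized reads in control and 431, 149 and 301 in dMF1/2 libraries (-3.11, adjusted p = 0.0153). Channels and transporters were therefore called in both directions. The call of Kcnd3 held in the leave-one-out fits, while those of Kcnq3 and Slc26a7 were lost in 5 and 2 (adjusted p up to 0.103 and 0.0611, each without dMF1/2 replicate 3).

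Several secreted proteins of the matrix and enzymes of hyaluronan were lower. Cemip, which starts the breakdown of hyaluronan, had 1725, 1154 and 1238 normalized reads in control and 151, 20.5 and 45.5 in dMF1/2 libraries (log2 fold change -4.66, limma's adjusted p = 0.00803), and Prg4, lubricin, had 337, 298 and 375 against 50.8, 11.2 and 54 (-3.36, adjusted p = 0.0138). Has1, a hyaluronan synthase, had 7217, 5207 and 5783 against 3642, 3944 and 4151 (-0.62, adjusted p = 0.0361). A gene that degrades hyaluronan and a gene that makes it were both lower, by very unequal amounts. Of 30 proteoglycan and hyaluronan genes 4 fell, Tnfaip6 (-0.66, adjusted p = 0.0382) being the other, and Spock1 rose from 205, 139 and 141 to 603, 416 and 688 (1.80, adjusted p = 0.00644), with a median of -0.11 (2 higher and 5 lower with the block). Has1, Tnfaip6 and Prg4 lost their calls in 5, 5 and 1 of the leave-one-out fits (adjusted p up to 0.119 for Has1 and 0.12 for Tnfaip6 with dMF1/2 replicate 1 omitted, and to 0.0611 for Prg4 with control replicate 3 omitted). Has1 and Tnfaip6 lost their calls in the fit of all 12 libraries (adjusted p = 0.182 and 0.123).

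Beside Spp1, 2 tenascins were lower among 34 matricellular and elastic fibre genes. Tnn, tenascin-N, had 1758, 473 and 750.3 normalized reads in control and 187, 56.9 and 97.4 in dMF1/2 libraries (log2 fold change -3.06, limma's adjusted p = 0.02), and Tnc, tenascin-C, 3019.9, 2742 and 1719 against 1104, 699 and 967 (-1.42, adjusted p = 0.0178). Matn4, a matrilin, rose (0.78, adjusted p = 0.0448), and the median of the list was -0.04 (3 higher and 5 lower with the block). In the basement membrane list 3 of 26 fell (1 higher and 7 lower with the block), led by Lama3, a laminin chain with 1998, 576 and 1016 against 116, 120.4 and 112 (-3.17, adjusted p = 0.00611), and followed by Egflam with 6877, 5025 and 5843 against 3053, 2292 and 2402 (-1.20, adjusted p = 0.00659) and Agrn, agrin (-0.65, adjusted p = 0.0242). The dMF1/2 libraries of Lama3 were within a narrow range of each other while its controls spread over 3-fold. Of 42 collagen genes Col6a5 (-0.76, adjusted p = 0.0252), Col25a1 (-1.20, 0.0302) and Col7a1 (-0.81, 0.044) fell and Col4a4 rose (0.69, 0.0131), with a median of -0.09 (2 higher and 3 lower with the block). Tnn, Tnc and Matn4 lost their calls in 3, 1 and 6 leave-one-out fits (adjusted p up to 0.0851, 0.0674 and 0.147, each without dMF1/2 replicate 3) and Agrn in 4 (up to 0.0782 without dMF1/2 replicate 1). Col4a4, Col25a1 and Col7a1 lost theirs in 2, 4 and 4 (up to 0.0622, 0.105 and 0.151, each without dMF1/2 replicate 3) and Col6a5 in 4 (up to 0.0967 without control replicate 3). Col6a5, Col25a1 and Col7a1 were not called in the fit of all 12 libraries (adjusted p = 0.105, 0.0793 and 0.34), so no collagen was called lower there, and Tnc, Matn4 and Agrn lost their calls as well (0.0537, 0.104 and 0.0572).

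Enzymes and adhesion molecules of the cell surface were called in both directions. Mmp11, a metalloproteinase of stromal cells, fell from 3379, 2406 and 3064 normalized reads in control to 923, 601 and 541 in dMF1/2 libraries (log2 fold change -2.12, limma's adjusted p = 0.00392), and Adamts4, which cuts proteoglycans, from 2042, 1963 and 2583 to 945, 812 and 1189 (-1.17, adjusted p = 0.00932). Adamts18 rose from 199, 419 and 378 to 1049, 1094 and 1055 (1.75, adjusted p = 0.0107), as did Adamts9 (0.84, adjusted p = 0.0138). These were the 4 called of 42 proteases and inhibitors, 2 in each direction (3 higher and 5 lower with the block). Of 26 cadherins and catenins (3 higher and 4 lower with the block), Cdh12 (12.2, 65.3 and 57.8 against 192, 426 and 626, 3.32, adjusted p = 0.0299) and Cdh22 (1.41, adjusted p = 0.0472) rose, and Cdh3, P-cadherin (73.3, 62.2 and 63.9 against 10.8, 22.4 and 18, -1.95, adjusted p = 0.0124), fell beside Ctnnb1. None of 19 integrins was called, with a median of -0.19 (1 higher and 2 lower with the block). Adamts18, Cdh3, Cdh12 and Cdh22 lost their calls in 1, 1, 3 and 4 of the leave-one-out fits (adjusted p up to 0.051 for Adamts18, 0.117 for Cdh12 and 0.156 for Cdh22 with dMF1/2 replicate 3 omitted, and to 0.0549 for Cdh3 with control replicate 3 omitted). Cdh12 missed the threshold with voom (adjusted p = 0.051) and in the fit of all 12 libraries (0.0788).

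**Figure D3:**
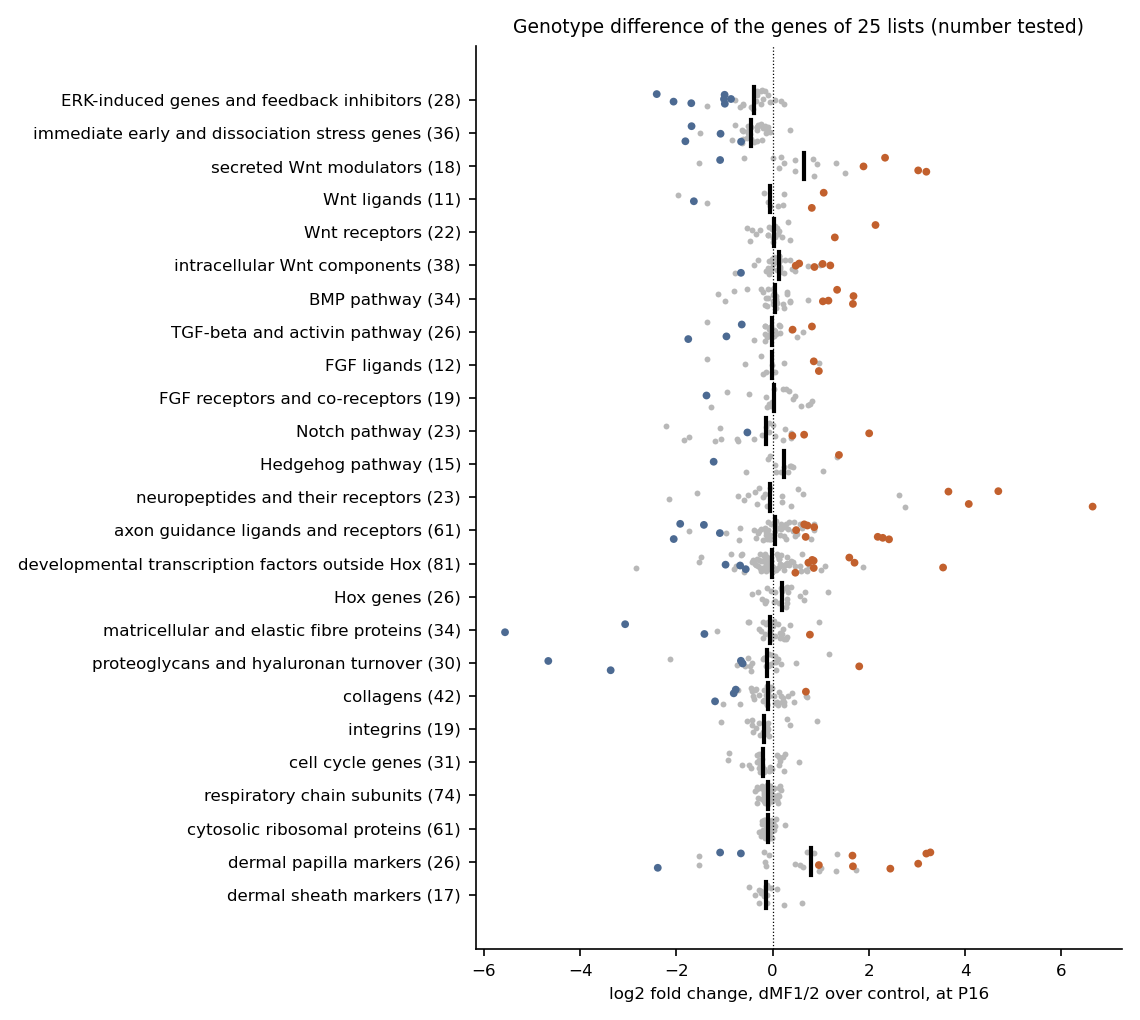
Log2 fold change of dMF1/2 over control at P16 for the tested genes of 25 lists, 1 point per gene, with called higher in orange, called lower in blue, the rest in grey and a black bar at the median of each list. The medians of dermal papilla markers (0.79) and secreted Wnt modulators (0.65) lie right of 0 and those of the immediate early genes (-0.45) and ERK-induced genes (-0.38) left of it, while most other medians are close to 0. Dermal papilla markers and secreted Wnt modulators share members, among them Rspo2, Rspo3 and Dkk2.

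Developmental transcription factors outside the Hox clusters showed 8 rises and 3 falls among 81, with a median of -0.00 (11 higher and 9 lower with the block). Alx4, a homeobox factor, rose from 3144, 5369 and 6174 normalized reads in control to 13894, 13520.1 and 19205 in dMF1/2 libraries (log2 fold change 1.70, limma's adjusted p = 0.0117), and Ebf1 from 2504, 2949 and 3066 to 5016, 4454 and 5995 (0.85, adjusted p = 0.0125). Pax1 had 9.6, 69.5 and 13.2 against 154, 296 and 364 (3.54, adjusted p = 0.0273), the largest rise of a transcription factor among the genes named here. Hand2 (21, 25.9 and 30.4 against 64.8, 107 and 70.9, 1.60, adjusted p = 0.0163) also rose, whereas Sox4 fell from 4243, 3439 and 3559 to 1993, 1618 and 2111 (-0.98, adjusted p = 0.00819), Twist1 from 4901, 4067 and 4501 to 3174, 2574 and 2703 (-0.67, adjusted p = 0.0169) and Prrx2 by a smaller amount (-0.56, adjusted p = 0.0193). These factors were therefore called in both directions. None of 26 Hox genes was called (median 0.19, 1 higher and 0 lower with the block). Outside the lists, Tox3 (21, 15.6 and 22.3 against 119, 141 and 146, 2.74, adjusted p = 0.00217) and Cux2 (110.0, 106 and 108 against 300.3, 396 and 484, 1.83, adjusted p = 0.00392) rose, with little spread among the controls. Alx4, Pax1, Hand2, Twist1 and Prrx2 lost their calls in 1, 3, 2, 3 and 4 leave-one-out fits (adjusted p up to 0.0515, 0.114, 0.0602, 0.075 and 0.0848, each without dMF1/2 replicate 3).

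Nuclear receptors, in a list that includes those for steroids, thyroid hormone and vitamin D, were called only downward, 3 of 19. With the block, 1 was higher and 5 lower. Vdr, the vitamin D receptor, which the hair cycle requires, fell from 931, 433 and 516 normalized reads in control to 225, 140.0 and 173 in dMF1/2 libraries (log2 fold change -1.75, limma's adjusted p = 0.0172), and Nr1h3, an oxysterol receptor, from 241, 260.3 and 321 to 118, 98.9 and 96.3 (-1.38, adjusted p = 0.00544), with Nr4a2 the third. Of 19 retinoid genes (4 higher and 2 lower with the block) the binding proteins moved apart: Crabp2 rose from 145, 192 and 236 to 483, 633 and 921 (1.80, adjusted p = 0.0104) while Crabp1 fell as given above. Both binding proteins separated the genotypes without overlap, in opposite directions. Vdr lost its call in 3 leave-one-out fits (adjusted p up to 0.0723 without dMF1/2 replicate 3). Crabp1 lost its call in the fit of all 12 libraries (adjusted p = 0.192).

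The smallest p-value of all genes belonged to Fxyd5, a small membrane protein that modulates the sodium pump and lowers cell adhesion. It had 757, 646 and 779 normalized reads in control and 121, 120.4 and 114 in dMF1/2 libraries, which is -2.60 on the log2 scale (standard error 0.11, adjusted p = 0.000125 by limma). The dMF1/2 libraries were within a few reads of each other, and the adjusted p with 1 library left out was at most 0.00285. Endod1, a secreted nuclease, fell from 1874, 2011 and 2239 to 889, 839.8 and 721 (-1.32, adjusted p = 0.0029) and Tor4a, a torsin, from 127, 136 and 135 to 38.9, 35.5 and 43.4 (-1.74, adjusted p = 0.00363). Cmpk2, a mitochondrial nucleotide kinase, rose from 127, 187 and 180.5 to 724, 816 and 917 (2.32, adjusted p = 0.00159). All 4 kept their calls in the 6 leave-one-out fits.

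Vim, Lmna, Noct, Apoe and Zeb2, of the most abundant called genes, differed by less than 2-fold. Vim, vimentin, had 99096, 72394 and 77035 normalized reads in control and 48686, 46835 and 50698 in dMF1/2 libraries (log2 fold change -0.75, limma's adjusted p = 0.0466), and Lmna, which encodes lamin A, 18458, 13435 and 16220.3 against 10314, 9601 and 9716 (-0.69, adjusted p = 0.0259). Noct, a phosphatase of NADPH under clock control, fell from 17735, 19000.2 and 21135 to 11351, 7804 and 13142 (-0.87, adjusted p = 0.0424). Vimentin was highest in control replicate 1, and the dMF1/2 libraries were close together. Apoe (8358, 7747 and 7769 against 10811, 10180.4 and 12636, 0.49, adjusted p = 0.0433) and Zeb2 (10898, 11232 and 11412 against 14657, 15399 and 16592, 0.47, adjusted p = 0.0316) rose by less than 1.5-fold. Vim, Lmna, Noct, Apoe and Zeb2 lost their calls in 6, 5, 6, 6 and 6 of the 6 leave-one-out fits (adjusted p up to 0.144 for Vim with dMF1/2 replicate 1 omitted, and to 0.103 for Lmna and 0.112 for Zeb2 with dMF1/2 replicate 3 omitted, and to 0.142 for Noct and 0.145 for Apoe with control replicate 3 omitted). Apoe and Lmna lost their calls in the fit of all 12 libraries (adjusted p = 0.202 and 0.0586), and Vim without the filter (0.0575) and with upper-quartile scaling (0.0502).

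Among the other large falls was that of a gene best known from immune cells. Plcg2, a phospholipase downstream of immune receptors, had 606, 333 and 488 normalized reads in control and 70.2, 22.4 and 43.4 in dMF1/2 libraries (log2 fold change -3.46, limma's adjusted p = 0.00592). Fgd3, an exchange factor for a small GTPase, had 221, 63.3 and 63.9 against 4.32, 1.87 and 4.23 (-4.50, adjusted p = 0.00611). It passed the filter through the controls and had an adjusted p of 0.00502 among all 15334 genes. Every dMF1/2 library was far below every control library for both genes, and the call of Plcg2 held in the leave-one-out fits. Immune cell markers, 18 in the table, summed to 19.4 to 29.1 RPM in control and 18 to 26.6 in dMF1/2 libraries, and none of the 9 tested was called. Among chemokine and interleukin genes, 2 of 46 rose and 1 fell (3 higher and 7 lower with the block). They were Il16 (843, 833 and 646 against 1495, 1486 and 1336, 0.90, adjusted p = 0.00861), Cxcl14 (1760.1, 1985 and 1613 against 2811, 2868 and 3198, 0.73, adjusted p = 0.00972) and Il1r1 (-0.51, adjusted p = 0.0281, lost in 4 leave-one-out fits, up to 0.108 without dMF1/2 replicate 3). Cxcl14 lost its call in the fit of all 12 libraries (adjusted p = 0.222), and Fgd3 with voom (0.053).

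Genes of general cell processes held no calls in 9 lists. None of 31 cell cycle genes was called (median -0.20), nor of 12 cyclin D and CDK inhibitor genes (0.05), 74 respiratory chain subunits (-0.08), 61 cytosolic ribosomal proteins (-0.10), 34 proteasome subunits (-0.09), 25 interferon-induced genes (-0.01), 21 genes of MHC class I presentation (-0.07), 23 clock genes (-0.19) or 40 lysosome and autophagy genes (-0.07). With the replicate block, 5 clock genes, 3 lysosome genes, 2 respiratory chain subunits and 1 interferon-induced gene were lower, and 1 ribosomal protein gene and 1 lysosome gene were higher, beside 1 gene in each direction of the cyclin D list. Of the 318 genes in these 9 lists, 32 had an unadjusted p under 0.05, against 19% of all genes tested. DESeq2 called 6 of them and edgeR none, against 8.35% and 4.48% of all genes. Cdkn1a, the inhibitor p21, had 4343, 2883 and 4462 normalized reads in control and 2539.7, 1891 and 2391 in dMF1/2 libraries and missed the threshold (log2 fold change -0.76, limma's adjusted p = 0.0606, 0.00247 with the block and 0.00128 in DESeq2). A p that misses the threshold does not show that a gene was equal.

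In 5 lists of metabolic and stress genes 5.41% to 8.33% of members were called, against 4.32% of all genes. Of 37 genes of cholesterol and fatty acid synthesis, 30 had a positive log2 fold change (median 0.08, 4 higher and 1 lower with the block), with Scd2 (6619.6, 7181 and 7724 against 10865, 10234 and 12439, 0.64, limma's adjusted p = 0.019) and Scd1 (3747, 4804 and 4417 against 6559, 5949 and 7675, 0.64, 0.0337), desaturases of fatty acids, higher and the elongase Elovl6 lower (1509, 801 and 812 against 319.8, 330.3 and 304, -1.64, 0.00978). Enzymes that modify fatty acids were thus called in opposite directions. In glycolysis and the hypoxia response, Egln3 (311, 158 and 296 against 104, 87.7 and 86.8, -1.39, adjusted p = 0.0248) and Eno1 (-0.40, 0.0375) fell among 34 (median -0.10, 0 higher and 3 lower with the block). Bid (-0.85, 0.0404) and the death receptor Tnfrsf21 (-1.18, 0.0479) fell among 27 genes of cell death and its inhibitors (median -0.07, 0 higher and 6 lower with the block), and Gadd45a (729.9, 494 and 636 against 263, 293 and 364, -1.01, 0.0193) and Trp53inp1 (-0.62, 0.0404) among 24 p53 targets (median -0.08, 0 higher and 5 lower with the block). Trib3 rose (1.27, 0.0216) and Vldlr fell (-1.06, 0.0258) among 37 genes of the unfolded protein response (median -0.10, 1 higher and 3 lower with the block). In the leave-one-out fits, Scd2, Scd1, Elovl6, Egln3, Trp53inp1, Trib3 and Vldlr lost their calls in 4, 4, 1, 5, 5, 4 and 4 (adjusted p up to 0.0701, 0.114, 0.0509, 0.101, 0.114, 0.1 and 0.108, each without dMF1/2 replicate 3), and Eno1, Bid, Tnfrsf21 and Gadd45a in 6, 4, 5 and 3 (up to 0.134, 0.133, 0.153 and 0.0744, each without control replicate 3). Bid, Eno1 and Scd1 lost their calls in the fit of all 12 libraries (adjusted p = 0.0629, 0.0836 and 0.0921).

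The sort was checked against markers of cells that neighbour the DP. Markers of matrix and hair shaft keratinocytes, 11 in the table, summed to 10.1 to 12.3 RPM in control and 11.1 to 13.5 in dMF1/2 libraries, and 16 others were absent from the table. Outer root sheath and epidermal keratinocyte markers summed to 68 to 90.3 and 79 to 88.8, and red blood cell markers to at most 7.51 in any library. Dermal papilla markers summed to 5768 RPM or more in every library, and sums over different genes are not corrected for gene length. Dermal sheath markers summed to 1169 to 2364 in control and 1243 to 1907 in dMF1/2 libraries, and interfollicular fibroblast markers to 4665 to 5632 and 4334 to 5448, with overlapping groups in both lists. Melanocyte markers, 12 in the table, summed to 125 to 318 against 185 to 247, and skeletal muscle markers, 12 in the table, to 66.1 to 145 against 65.3 to 123. None of 17 sheath markers was called (0 higher and 2 lower with the block), and of 17 fibroblast markers only Has1 (1 higher and 2 lower with the block).

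Among vessel markers limma's main test called 1 endothelial and 1 pericyte gene lower. Endothelial markers, 17 in the table, summed to 81.6 to 160 RPM in control and 76.3 to 89.2 in dMF1/2 libraries, overlapping at control replicate 1, and 14 of the 15 tested had a negative log2 fold change, with a median of -0.83 (0 higher and 3 lower with the block). DESeq2 called 6 of these 15 lower, and edgeR with the block 5. Plvap, a protein of vessel walls, was the 1 called by limma without the block. It had 498, 461 and 516 normalized reads in control and 169, 231 and 158 in dMF1/2 libraries (-1.42, limma's adjusted p = 0.00508). Pericyte markers summed to 1508 to 1766 against 987 to 1226 with no overlap, while their median log2 fold change was -0.23 (0 higher and 2 lower with the block). Cspg4 fell from 15739, 9568 and 12195 to 3961, 2228 and 2951 (-2.05, adjusted p = 0.00604), while Pdgfrb, their most abundant member, was not called (-0.23, adjusted p = 0.369). Both Plvap and Cspg4 kept their calls in the leave-one-out fits. The part of vessel cells in the genes that fell was not tested. Plin1, a lipid droplet protein, rose from 41, 87.1 and 59.8 to 253, 370.5 and 369 (2.43, adjusted p = 0.00604) as the only one called of 7 adipocyte markers, whose sum was 243 to 315 against 247 to 346.

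**Figure D4:**
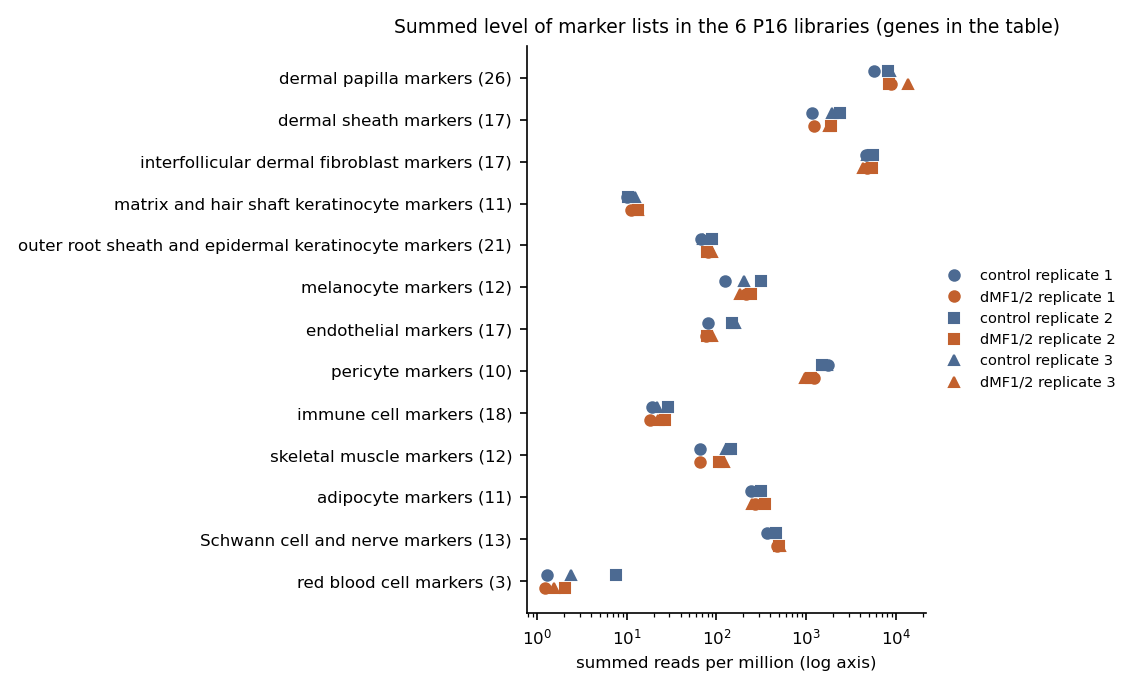
Summed RPM of 13 marker lists in each of the 6 P16 libraries on a log axis, with control in blue, dMF1/2 in orange, and replicates 1, 2 and 3 as circles, squares and triangles. The lists hold different genes, so their heights compare libraries and not lists. The sum of pericyte markers is lower in all 3 dMF1/2 libraries than in any control library. Of the 9 pericyte markers tested only Cspg4 was called, their median log2 fold change was -0.23, and the sum without Cspg4 was not computed.

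The same genotypes at P14, in 6 other libraries normalized apart, were set beside the P16 values. At P14 replicate 2 of each genotype held 2 reads of Ddx3y and Eif2s3y together, against at least 1716 in each of the other 4 libraries. Replicate 1 of each genotype stood apart at P14, with 7.06% (control) and 9.15% (dMF1/2) of its reads on the most abundant gene, a chain of type I collagen, against 16.4% to 17.1% in the other 4. At P14 7 of 13334 genes passed (0.0525%), and 6 of them were among the 582 called at P16: Slc12a2 and Slc5a3, transporters of chloride and of inositol, the kinesin Kif21b and the death receptor Tnfrsf21, all lower, and Hey2 and the secreted protein Ccdc3, both higher. Their log2 fold changes at P14 and P16 were -1.10 and -0.996 for Slc12a2, -1.17 and -1.05 for Slc5a3, -1.80 and -2.45 for Kif21b, -1.46 and -1.18 for Tnfrsf21, 1.50 and 2.01 for Hey2, and 1.34 and 1.33 for Ccdc3. These 6 were named after their values were seen. Without both replicate 1 libraries, an alternative chosen after seeing the data, 9 genes passed at P14, 4 of them among the 582. With the replicate number as a block at P14, also added then, 224 genes passed, 91 of them among the 582. Of the 579 called P16 genes tested at P14, 554 had the same sign on both days. The share of equal signs over all genes was not computed. Because they were chosen at P16, larger differences at P16 than at P14 are expected of them. Npy4r averaged 94.7 normalized reads in P14 control and 1376 in P14 dMF1/2 libraries (limma's adjusted p = 0.0826), against means of 7.57 and 914 at P16. The log2 fold changes at P14 and P16 were 0.79 and 3.20 for Rspo3, 0.61 and 3.03 for Rspo2, and 0.21 and 2.19 for Unc5c. Falls present in like measure at P14 were those of Trpc4 (-4.22 at P14, -4.85 at P16), Cemip (-3.93 and -4.66), agouti (-3.996 and -3.70) and Dkk2 (-1.27 and -1.09), though none of these 4 passed the test at P14.

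Whether the genotype difference itself changed between the days was tested in a joint fit of the 12 libraries. No gene of 13415 passed limma's test of the genotype by day interaction (0%), with 648 at an unadjusted p under 0.05 and 7 called by DESeq2. Without both P14 replicate 1 libraries 2 genes passed. Mmp11 (-0.49 at P14 and -2.12 at P16) had an unadjusted interaction p of 5.09e-05 (adjusted 0.342), and Unc5c of 0.000511 (adjusted 1). For Rspo2 and Rspo3 the unadjusted values were 0.000815 and 0.00153 (adjusted 1 and 1), and for Spp1 0.0665 (adjusted 1). A larger genotype difference at P16 than at P14 was therefore not shown for these genes after adjustment.

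**Figure D5:**
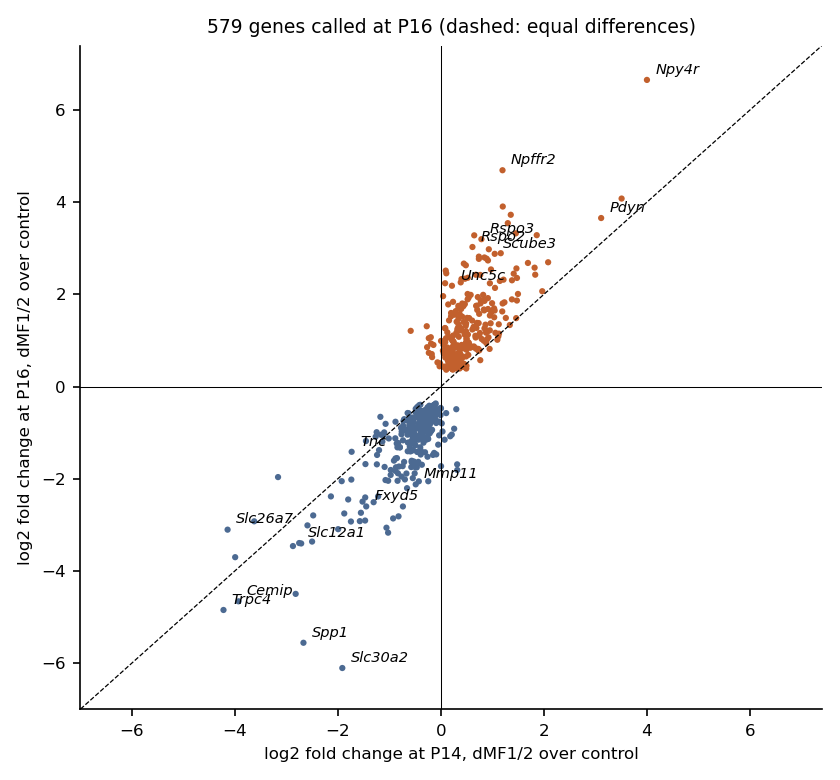
Log2 fold change of dMF1/2 over control at P14 (x axis) and P16 (y axis) for the 579 genes called at P16 and tested at P14, higher at P16 in orange and lower in blue, with a dashed line of equal differences. Of the 579 points 554 lie in the quadrants of equal sign, a share not computed for all genes. Npffr2, Slc30a2 and Spp1 lie far from the dashed line while Trpc4 and Cemip lie near it.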

How the data were processed

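RNA from sorted DP cells of 12 mice was ribosome-depleted and sequenced with a directional kit as single reads. Per the submitters' processing notes, reads were trimmed with Trimmomatic, aligned to mm10 with TopHat2 and counted per Ensembl gene (GRCm38.p4) with HTSeq, and the authors deposited a signal per gene and library, read counts divided by the DESeq2 size factor, in 1 table per day. The P16 table held 15334 protein-coding genes with at least 12 reads over the 6 libraries. It also held fold changes, standard errors, test statistics and p-values of the authors' own comparison, which were not used. Undoing the size factors gave whole reads for 100% of values within 0.01 read. Genes annotated on opposite strands could share reads only if strand was ignored in counting, which is not given in the sources used here.

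The main test was limma 3.58.1 (R 4.3.3) with an intensity trend on log2(normalized reads + 1), run on genes averaging 10 or more normalized reads, with Benjamini-Hochberg adjustment over all genes tested and a threshold of 0.05. Fold changes on this scale understate the change of low genes. edgeR 4.0.16 (quasi-likelihood) called 603 genes on the recovered reads, and DESeq2 1.42.0, voom, other pseudocounts, filters and scalings, each library left out, all 12 libraries in 1 fit, and a replicate block were the alternatives. The fitting steps were tested on simulated data first. Libraries with the same replicate number deviated together at P16 (correlations over genes of 0.256, 0.293 and 0.311, against -0.0904 to -0.218 for unlike numbers). The numbers were therefore taken to pair the libraries in the block fits, though the labels do not say what they mark. The main test did not use this pairing, and results with the block are given beside it.

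Genes were named by rule: the targets and Wnt genes the study follows, the 15 largest rises and falls averaging 1 RPM or more, the 8 most abundant and 8 smallest p in each direction, up to 4 called genes per list and direction, or 2 where none was called, and 3 leading markers. Ddx3y, Eif2s3y, Kdm5d, Uty, Dusp6, Dusp7, Myc, Spry1, Spry2, Spry4, Fos, Egr1, Prickle2, Bambi, Bmp4, Gli1, Ndnf and Corin were added after their values were seen, and some genes the rule names are not reported here. The 61 gene lists and their members were chosen with earlier results of these data known, and a list's direction is no independent evidence.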

Additional observations from a re-analysis of the deposited data

How the results depend on the processing

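The number of genes called, 582, changed by over 1.5 times under 2 kinds of alternative with all 6 libraries. DESeq2 called 1123 genes (535 higher and 588 lower). Blocking on the replicate number gave 1403 calls in limma (655 and 748) and 1439 in edgeR (663 and 776), and the block took no call from the 582 and changed no other call of a named gene than those given with its value above. The remaining alternatives called 543 to 606. Leaving out 1 library gave 149 to 683 genes, 64 to 315 higher and 85 to 368 lower. The cause of this range was not tested. No gene was called for the interaction of genotype and day, with the block included, while DESeq2 called 7 and leaving out 1 of the 12 libraries called 0 to 2. At P14, 7 genes became 224 with the block and 9 without both replicate 1 libraries, which gave 2 genes for the interaction. With 1 library left out, the log2 fold changes of 4 genes that were not called changed sign, lying between -0.086 and 0.13 for Fgfr2, -0.080 and 0.14 for Spry1, -0.24 and 0.067 for Egr1 and -0.075 and 5.39 for Ddx3y. Of 158 called genes named above, Trim9 not counted, 122 kept their call in all 12 alternatives with 6 or more libraries. A further 8 were left untested by the filter of 10 normalized reads in every library. In all 6 fits without 1 library 60 kept their call. The fit of all 12 libraries took the calls of 26 of the 158, given above. The median log2 fold change of all genes was -0.01 with TMM and 0.01 with upper-quartile scaling. Fgfr1 passed the threshold with DESeq2 (adjusted p = 0.0335) and with the block.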

Other observations

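Members of 4 further gene families were looked at after their values were seen, so they are described without a test of the family. Over all genes 2.18% were called higher and 2.14% lower, or 4.87% and 5.56% with the replicate block. Of 12 S100 proteins tested, small calcium-binding proteins, 4 fell and none rose, 3 had a positive log2 fold change, and the median was -0.48, while the replicate block called 1 higher and 6 lower. S100a6 had 2865, 2340.4 and 2655 normalized reads in control and 1664, 1748 and 1621 in dMF1/2 libraries (-0.64, limma's adjusted p = 0.0117), and S100a4 had 1001, 515 and 494 against 190.1, 216 and 169 (-1.73, adjusted p = 0.0124). The groups did not overlap for either gene. S100a1 (-0.90, adjusted p = 0.0119) and S100a10 (-0.58, adjusted p = 0.0307) were the others called. S100a6, S100a4 and S100a10 lost their calls in 2, 1 and 4 leave-one-out fits (adjusted p up to 0.0582 for S100a6 and 0.0604 for S100a4 with dMF1/2 replicate 3 omitted, and to 0.112 for S100a10 with control replicate 3 omitted), and S100a1 kept its call. S100a10 lost its call in the fit of all 12 libraries too (adjusted p = 0.102).

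Of 16 receptor genes tested for glutamate, the main excitatory transmitter, 4 rose, none fell, 12 had a positive log2 fold change, and the median was 0.53, with 8 called higher under the replicate block. Beside Grin2b, Grik5 had 472, 523 and 484 normalized reads in control and 683, 747 and 978 in dMF1/2 libraries (0.69, limma's adjusted p = 0.0323), and Grin3a had 98.7, 271 and 221 against 601, 513 and 1213 (1.99, adjusted p = 0.0404). Grm8, a metabotropic receptor, had 9.6, 49.8 and 22.3 against 96.1, 98.9 and 135 (2.24, adjusted p = 0.0482). Control replicate 1 was the lowest library for all 3. Leucine-rich repeat proteins of synapses were called higher for 6 of 28 and lower for 1, with a median of 0.19 (10 higher with the block). Adhesion G protein-coupled receptors were called in both directions, 4 higher and 2 lower of 17, with a median of 0.01 (4 lower with the block). Grik5, Grin3a and Grm8 lost their calls in 4, 5 and 4 of the leave-one-out fits (adjusted p up to 0.109 for Grik5 with control replicate 3 omitted, and to 0.119 for Grin3a and 0.162 for Grm8 with dMF1/2 replicate 3 omitted), and Grm8 with a pseudocount of 0.1 (adjusted p = 0.0518).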
